A study of Mus musculus with 2 samples.

Results

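Gpnmb and the 4 genes of the MiT/TFE transcription factor family, Mitf, Tfeb, Tfe3 and Tfec, were examined, 5 of 55536 annotated genes in the deposited tables. They were picked on measured values, because Gpnmb was among the most abundant messenger RNAs of these libraries, so the rank of Gpnmb is a description and not a finding. The series holds total RNA sequencing, after ribosomal RNA was depleted, of the nucleoplasmic fraction of bone-marrow-derived macrophages from C57BL/6J mice, which are macrophages grown in culture from marrow precursors. All cells had received 100 ng/ml lipid A, the membrane anchor of bacterial lipopolysaccharide and the ligand of the receptor TLR4, for 90 min. The 2 libraries form 1 group of biological replicates that share a donor entry, and replicate 1 was made from 1 µg of RNA, replicate 2 from 500 ng. No library without lipid A was analysed here, so the values are levels at 1 time point, their spread may be partly technical, and no test between conditions was made.

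GPNMB is a transmembrane glycoprotein of endosomes, lysosomes and the cell surface, related to the melanosome protein PMEL. It is made by melanocytes, by osteoclasts and by macrophages that take up lipid or debris, and its outer part can be shed by ADAM proteases. MITF, TFEB, TFE3 and TFEC are basic helix-loop-helix leucine zipper factors that bind E-box DNA as dimers with each other. MITF drives pigment genes in melanocytes and bone-resorbing genes in osteoclasts, and TFEB and TFE3 drive lysosome and autophagy genes that carry the CLEAR element, an E-box with the core CACGTG. Expression of Tfec is largely restricted to the myeloid lineage. When nutrients are ample, the kinase complex mTORC1 phosphorylates TFEB and TFE3 on the lysosome surface through Rag GTPases, and they stay in the cytosol. Gpnmb itself is a known target of MITF in melanocytes and osteoclasts.

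The promoter letters of Gpnmb are shown because the E-box core was looked for in them. The stretch from RefSeq (GRCm38.p6, the mm10 assembly), chr6:49036268-49036545 on the plus strand, ends at the base before the first transcript start in the GENCODE M21 annotation. Capitals mark TGACTCA, the AP-1 letters.
Gpnmb first start: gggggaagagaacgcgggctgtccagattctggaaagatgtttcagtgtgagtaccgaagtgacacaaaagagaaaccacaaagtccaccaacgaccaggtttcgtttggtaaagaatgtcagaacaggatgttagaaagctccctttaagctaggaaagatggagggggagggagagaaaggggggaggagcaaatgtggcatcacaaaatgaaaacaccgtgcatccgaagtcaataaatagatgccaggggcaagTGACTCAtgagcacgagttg
The AP-1 letters stood at 49036526 to 49036532, ending 14 bases before that start. They begin 8 bases past the RefSeq start of the gene, at 49036518, so whether they lie before or after the start depends on the annotation. CACGTG and CATGTG, the cores of the CLEAR element and of the M-box of melanocyte genes, were in 0 of the 10 RefSeq promoter windows of the 5 genes, each of 300 bases (250 before and 50 after a RefSeq start). Searched on both strands, CACGTG was in 7.15% of all 32851 such windows, CATGTG in 14.2% and TGACTCA in 5.20%. That these letters are absent from the windows says nothing of sites elsewhere.

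For contrast, the 4 most abundant genes of a CLEAR target list that hold CACGTG in such a window are shown in 30 bases around it, in capitals. They are the protease genes Ctsd and Ctsa, the lysosomal membrane gene Lamp1 and the chloride transporter gene Clcn7, at chr7:142387908-142387937 on the minus strand, chr2:164833749-164833778 on the plus strand, chr8:13159088-13159117 on the plus strand and chr17:25133364-25133393 on the plus strand.
Ctsd: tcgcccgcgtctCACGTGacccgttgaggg
Ctsa: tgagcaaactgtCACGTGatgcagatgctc
Lamp1: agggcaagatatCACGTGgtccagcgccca
Clcn7: tccgtcgtcagtCACGTGggcaccgatgat
Of the 27 genes of the list with a window, 14 held the core (51.9%), beside 8.09% of 27025 gene symbols with a window. The list was written from genes known for this element, so its share describes the list. In the other lists used here the count was 3 of 8 for other E-box factors, 6 of 22 for Rag, folliculin and mTORC1 genes, 2 of 9 for neutrophil, lymphocyte and dendritic cell markers, 1 of 5 for GPNMB partners and sheddases, 1 of 6 for melanocyte genes, 0 of 9 for osteoclast and lipid-laden macrophage genes and 0 of 7 for macrophage markers.

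Gpnmb lies on chromosome 6 at 49036546 to 49070929 (mm10, plus strand) and was at 1392 TPM in replicate 1 and 2084 TPM in replicate 2, where TPM is a level scaled to transcript length and to a fixed total over each library. It was the fourth most abundant protein-coding gene outside the mitochondrial genome in each library. Ordered by mean, its neighbours were Lilrb4a (1992 and 2379 TPM), a myeloid inhibitory receptor gene that may share reads with its near-identical neighbour Lilr4b, and Tnfaip2 (995 and 1585 TPM), a TNF-inducible gene. In replicate 1 alone they were Lilr4b (1990.2 TPM) and the cathepsin gene Ctsb (1017 TPM). Its mean of 1738 ± 489 TPM (SD, n = 2) was 225 times the median of 7.72 TPM over 8559 expressed protein-coding genes, those that reached 1 TPM in both libraries. A second quantification, made directly from the reads, put Gpnmb at 964 TPM in replicate 1 and 1464 TPM in replicate 2, the fifth most abundant. The deposited TPM lay above the quantifier's own interval in both libraries, which ran from 1337 to 1361 TPM in replicate 1 and from 1923 to 1982 TPM in replicate 2.

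Summed over all annotated transcripts of each gene, Tfec was the most abundant of the 4 factors. It lies on chromosome 6 at 16833373 to 16898441 on the minus strand and was at 104 TPM in replicate 1 and 179.6 TPM in replicate 2. The second quantification gave 81.5 and 124 TPM. Mitf, further along the same chromosome at 97807052 to 98021349 on the plus strand, was at 46.6 TPM in replicate 1 and 53.0 TPM in replicate 2, and the second quantification gave 49.1 and 53.5 TPM. The levels of Tfec and Mitf did not overlap between the libraries in either quantification. The full-length coding form Tfec-201 alone was at 30.01 and 38.1 TPM, and the coding transcripts of Mitf summed to 21.1 and 27.6 TPM. In the second quantification these were close, at 25.2 and 27.4 TPM against 24.1 and 25.4 TPM. By estimated counts of the first quantification Tfec-201 (1637 and 1036) was below the coding Mitf-202 (2863 and 1866).

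Tfe3, on the X chromosome at 7762560 to 7775202 on the plus strand, was at 11.4 TPM in replicate 1 and 16.7 TPM in replicate 2. Tfeb, on chromosome 17 at 47737030 to 47792419 on the plus strand, was the lowest, at 3.40 and 3.13 TPM. Tfeb had only 152 estimated counts in replicate 1 and 82 in replicate 2, so its level is the least precise of the 5. Its deposited TPM lay below the quantifier's interval, which was 3.70 to 6.76 TPM in replicate 1 and 4.09 to 8.77 TPM in replicate 2, and the posterior mean was 5.14 and 6.32 TPM. By the second quantification Tfe3 (7.69 and 10.7 TPM) was above Tfeb (7.19 and 7.46 TPM) in each library, by 1.07-fold and 1.43-fold. Their ranges did not overlap there. The difference of means, 1.86 TPM, was still below the SD of Tfe3 (2.12), so by TPM their order was only weakly separated there. By estimated counts of the second quantification, which are not divided by length, Tfe3 had 1312 and 1363 and Tfeb 266 and 193. The 287-base Tfeb-207 made 19.2% and 32.4% of Tfeb TPM there from 8 and 10 counts. The other neighbours in the order Gpnmb, Tfec, Mitf, Tfe3 also kept non-overlapping ranges in both quantifications, with differences of means above both SDs.

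**Figure D1:**
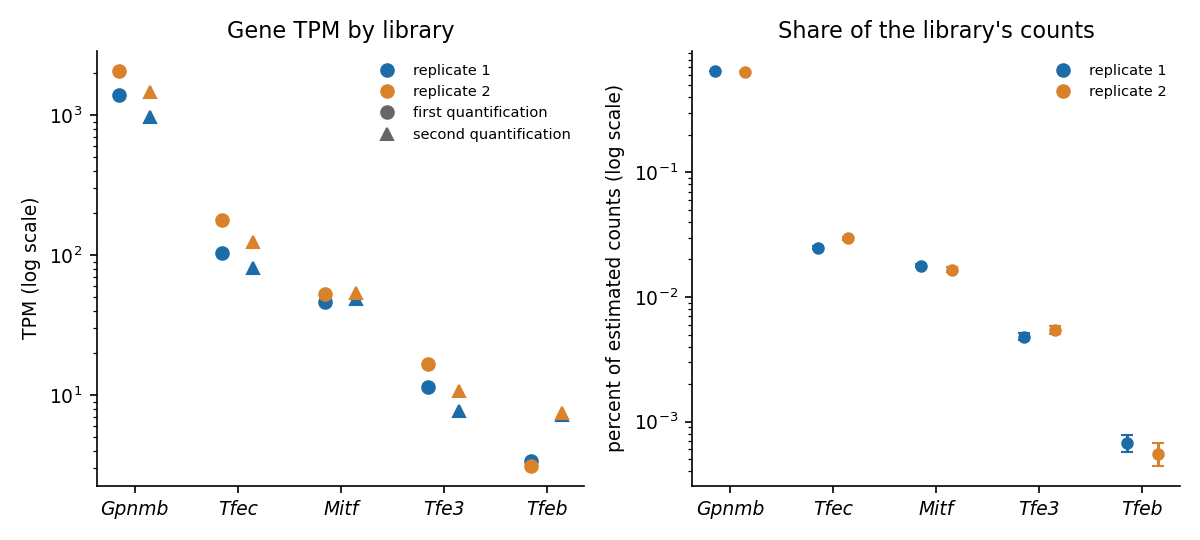
Levels of the 5 genes in replicate 1 (blue) and replicate 2 (orange). Left, TPM on a log scale, with circles for the first quantification and triangles for the second; right, percent of the library's estimated counts on a log scale, with Wilson 95% intervals. Gpnmb stood over 10-fold above every factor in TPM, and its share of counts nearly coincided in both libraries.

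Together the 4 factors summed to 165 TPM in replicate 1 and 252 TPM in replicate 2. Tfec held 62.9% of that sum in replicate 1 and 71.1% in replicate 2, Mitf 28.2% and 21.01%, Tfe3 6.90% and 6.60%, and Tfeb 2.06% and 1.24%. The second quantification gave Tfec 56.04% and 63.4%, Mitf 33.7% and 27.3%, Tfe3 5.29% and 5.46%, and Tfeb 4.94% and 3.81%, so Tfeb was there close to Tfe3. By estimated counts, which are not divided by length, Tfec held 51.6% and 56.7% and Mitf 37.0% and 31.8%. Gpnmb was 8.42 times the summed factors in replicate 1 and 8.26 times in replicate 2.

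Read against all protein-coding genes, 5 of the 5 genes reached 1 TPM in both libraries, where 38.9% of 22015 protein-coding genes did. At 10 TPM or more there were 4 of 5 beside 14.6% of all, at 100 TPM or more 2 of 5 (Gpnmb and Tfec) beside 1.22%, and at 1000 TPM or more 1 of 5 (Gpnmb) beside 0.0227%. In the second quantification 5, 3, 1 and 0 of the 5 reached these levels in both libraries. The genes were chosen partly by abundance, so these shares are descriptive. In bulk RNA, fewer cells that make a transcript and less of it in each cell cannot be told apart.

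The libraries differed in how much TPM short RNAs took, so ratios between them are given as log2, replicate 1 over replicate 2, relative to the median of expressed protein-coding genes, which was itself at -0.38. On that scale Gpnmb was at -0.21, Tfec at -0.41, Tfe3 at -0.17, Mitf at 0.19 and Tfeb at 0.49. None of the 5 was past 1.5-fold (0.58), while 14.6% of the 8559 expressed genes were, in either direction. With no minimum on level in the set that gives the median, the ratios equalled those without centring. Of the 22015 protein-coding genes in that set, 7657 were at 0 in both libraries. Tfec was then at -0.79, past 1.5-fold, and the other 4 were not. With counts scaled by TMM, the ratios were 0.06 for Gpnmb, -0.22 for Tfec, -0.15 for Tfe3, 0.14 for Mitf and 0.32 for Tfeb.

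Gpnmb took 147875 estimated counts in replicate 1 and 95841 in replicate 2. As a share of each library that was 0.652% (Wilson 95% interval 0.649% to 0.656%) and 0.642% (0.638% to 0.646%). The share was nearly level while the TPM was higher in replicate 2, and the effective length that divides the counts was 3044 bases in replicate 1 and 2664 bases in replicate 2. A gene's effective length is an average over its transcripts, weighted by their levels. The second quantification gave Gpnmb 0.534% of counts in replicate 1 and 0.510% in replicate 2.

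Among the factors, Tfec took 5654 counts in replicate 1 and 4426 in replicate 2, which is 0.0249% (0.0243% to 0.0256%) and 0.0296% (0.0288% to 0.0305%) of the libraries. Mitf took 4052 and 2479 counts, or 0.0179% (0.0173% to 0.0184%) and 0.0166% (0.0160% to 0.0173%). Tfec thus had the larger share in replicate 2 and Mitf in replicate 1, with intervals that did not overlap for Tfec and nearly met for Mitf. Tfe3, with 1092 and 814 counts, and Tfeb had intervals that overlapped between the libraries.

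Gpnmb has 5 annotated transcripts, and Gpnmb-201, the full-length coding form of 11 exons, led. It was at 1123 TPM in replicate 1 and 1392 TPM in replicate 2, which is 80.7% and 66.8% of the gene's TPM. By estimated counts its share was 92.2% and 87.5%. The second quantification gave it 615 and 734 TPM (63.8% and 50.1%). Relative to the median gene, its log2 ratio of replicate 1 over replicate 2 was 0.07, close to level.

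The Gpnmb transcript that differed most between the libraries was Gpnmb-204, annotated as retained intron. It was at 77.1 TPM in replicate 1 (deposited interval 67.6 to 81.7) and 418 TPM in replicate 2 (365 to 420.2), and the second quantification gave 85.5 and 320.0 TPM. Replicate 2 was the higher library in both quantifications, with a log2 ratio of replicate 1 over replicate 2, relative to the median gene, of -2.06 in the first and -1.56 in the second. The transcript received 1135 estimated counts in replicate 1 and 3126 in replicate 2, which is 0.767% and 3.26% of the gene's counts. Since it is only 645 bases long, these few counts were 5.54% and 20.1% of the gene's TPM. The border where it leaves exon 6 is shown, with intronic bases in capitals, at chr6:49048082-49048121 on the plus strand (GENCODE M21 transcript letters).
Gpnmb-204: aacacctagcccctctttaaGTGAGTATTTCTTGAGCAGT
Of its 645 bases, 395 lie in exons of Gpnmb-201 and 250 in the first part of intron 6, which is 2308 bases long.

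Gpnmb-202, annotated as subject to nonsense-mediated decay and 365 bases long, was at 34.1 TPM in replicate 1 and 20.4 TPM in replicate 2, but at 121 and 208 TPM in the second quantification. Its order between the libraries thus turned with the quantification. The remaining transcripts, the coding Gpnmb-203 and the retained-intron Gpnmb-205, each held under 10% of mean TPM in both quantifications.

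**Figure D2:**
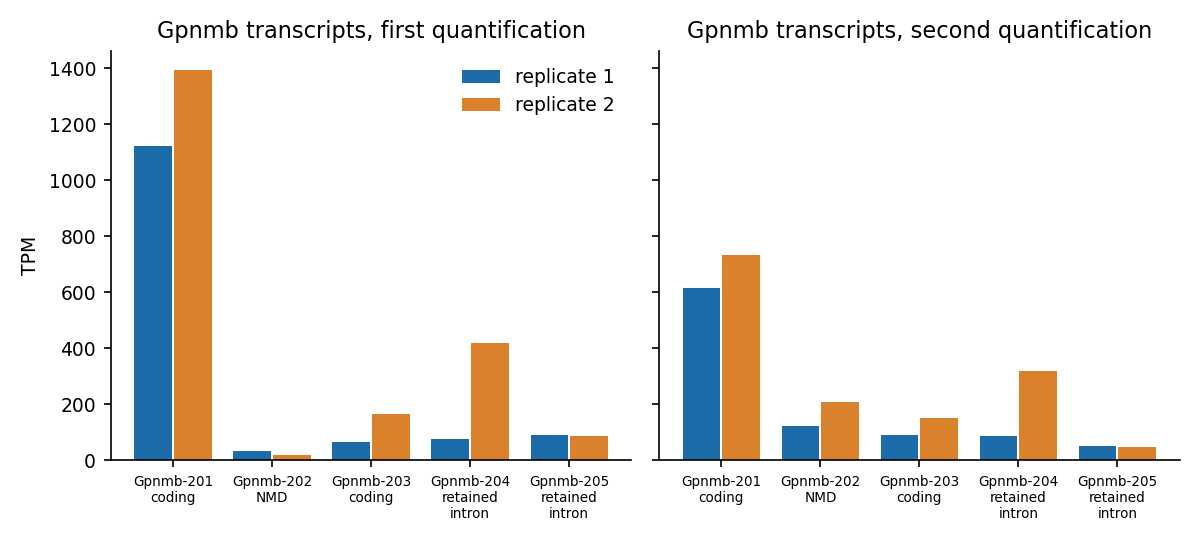
TPM of the 5 Gpnmb transcripts in replicate 1 (blue) and replicate 2 (orange), in the first quantification (left) and the second (right); NMD is nonsense-mediated decay. Gpnmb-201 is highest in all panels, and Gpnmb-204 is at 77.1 and 85.5 TPM in replicate 1 but 418 and 320.0 TPM in replicate 2.

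Retained-intron transcripts, which in nucleoplasmic RNA cannot be told apart from RNA not yet spliced, held 12.04% of Gpnmb TPM in replicate 1 and 24.2% in replicate 2. Over 5581 expressed protein-coding genes with such a transcript the median was 35.2% in replicate 1 and 34.3% in replicate 2, so Gpnmb was below the median in both. For Gpnmb the difference, replicate 2 minus replicate 1, was 12.2 percentage points, above that of 89.9% of these genes, whose median difference was -0.370 points. By the second quantification it was 11.1 points, above that of 89.1% of genes.

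Among the factors, the retained-intron share was 54.6% in replicate 1 and 48.0% in replicate 2 for Mitf, 49.2% and 53.5% for Tfe3, 39.9% and 35.97% for Tfec, and 21.5% and 5.11% for Tfeb. Mitf and Tfe3 were above the median gene and Tfeb below it in both libraries. The second quantification gave Mitf 50.8% and 52.5%, Tfe3 56.0% and 66.8%, Tfec 32.2% and 32.2%, and Tfeb 12.9% and 3.04%, beside medians of 39.3% and 39.9% over 6182 genes. Tfec thus stood just above the median gene in the first quantification and below it in the second. Its share leaves out Tfec-204, which is annotated as coding though 510 of its 572 bases lie in intron 6. That transcript held 31.2% and 42.8% of Tfec TPM in the first quantification and 36.9% and 45.7% in the second. By estimated counts the order was another, with 64.1% in replicate 1 and 65.8% in replicate 2 for Tfec, 64.3% and 63.8% for Tfe3, 24.9% and 20.3% for Mitf, and 4.91% and 1.44% for Tfeb. By TPM in the first quantification, the share of Mitf exceeded that of 78.7% of genes in replicate 1 and 69.3% in replicate 2.

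**Figure D3:**
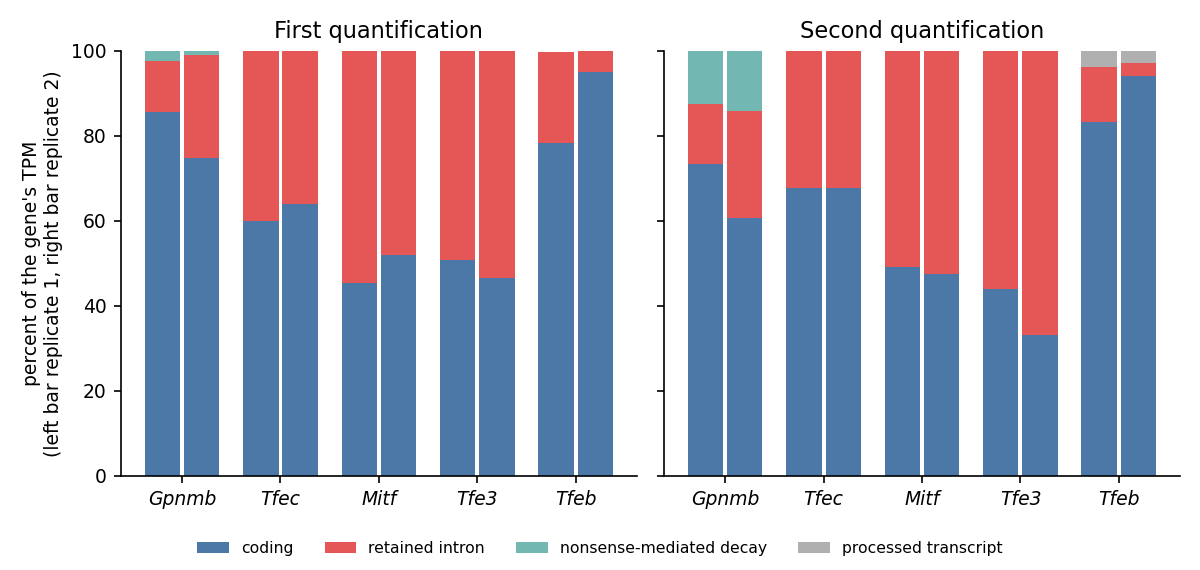
Percent of each gene's TPM by annotated transcript type, with replicate 1 as the left and replicate 2 as the right bar of each pair, in the first quantification (left panel) and the second (right panel). The retained-intron part is 54.6% and 48.0% of Mitf and 12.04% and 24.2% of Gpnmb in the first quantification. The mostly intronic Tfec-204 is drawn as coding, by its annotation.

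Mitf can start at several first exons that give its forms their own first amino acids. Its most upstream start is used in many cell types, and its most downstream annotated start is known from melanocytes. The letters upstream of both are shown because the quantifications differed in how they split reads between them. The first stretch is chr6:97806808-97807051 and the second chr6:97991533-97991791, both on the plus strand (RefSeq, GRCm38.p6), each ending at the base before the first annotated start, with CG dinucleotides in capitals.
Mitf most upstream start: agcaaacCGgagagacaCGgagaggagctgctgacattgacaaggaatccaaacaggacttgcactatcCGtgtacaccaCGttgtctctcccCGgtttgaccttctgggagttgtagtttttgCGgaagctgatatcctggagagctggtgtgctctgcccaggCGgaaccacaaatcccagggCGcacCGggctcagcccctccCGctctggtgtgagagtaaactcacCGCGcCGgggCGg
Mitf most downstream start: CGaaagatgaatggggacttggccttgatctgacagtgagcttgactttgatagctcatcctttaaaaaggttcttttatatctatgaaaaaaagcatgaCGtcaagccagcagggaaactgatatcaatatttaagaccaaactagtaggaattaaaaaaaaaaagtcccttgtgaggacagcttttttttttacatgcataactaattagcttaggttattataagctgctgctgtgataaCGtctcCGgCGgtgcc
The upstream stretch held 14 CG dinucleotides and was 58.6% G or C, and the downstream stretch held 5 and was 37.8% G or C. The downstream window was the only 1 of the 10 windows with TGACGTCA, the cAMP response element, which 1.79% of all windows hold.

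In the first quantification, coding transcripts from the most upstream start held 85.1% of coding Mitf TPM in replicate 1 and 83.9% in replicate 2. Nearly all of it was Mitf-202, at 17.6 and 23.1 TPM. Those from the most downstream start held 7.52% and 7.91%. Most of that was Mitf-208, at 1.48 and 2.08 TPM from 43.9 and 31.0 estimated counts. Mitf-201, grouped at the same start, was at 0.11 and 0.10 TPM from 6.75 and 2.92 estimated counts. In the second quantification the upstream start held 42.6% in replicate 1 and 45.6% in replicate 2, and the downstream start 34.0% and 32.5%. Mitf-201 was there at 5.49 and 6.32 TPM and Mitf-208 at 2.71 and 1.92 TPM. The libraries lay close together within each quantification, while the quantifications differed, so the tables do not settle how much of Mitf began at the downstream start. Of 10 melanocyte genes, 0 reached 1 TPM in both libraries in the first quantification and 1, Dct, in the second.

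**Figure D4:**
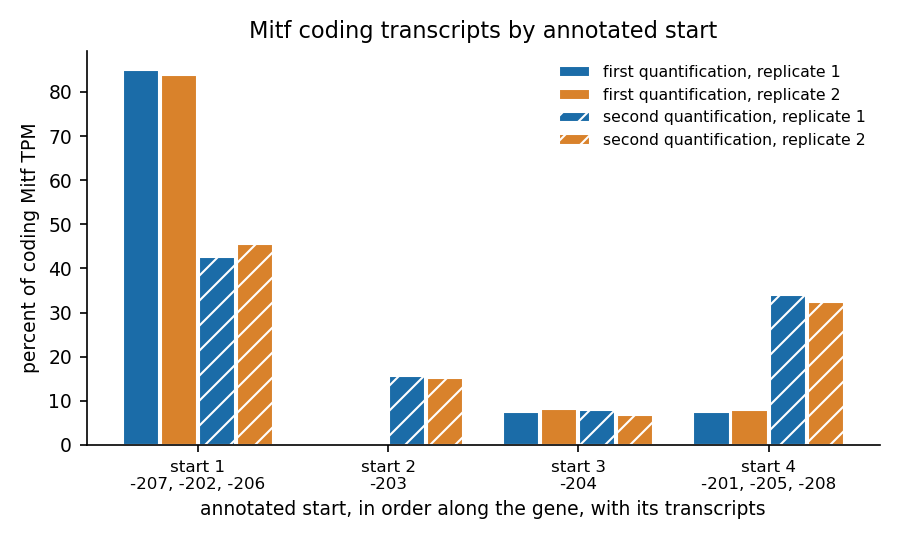
Percent of coding Mitf TPM by annotated start, in order along the gene, with transcripts named under each start; plain bars are the first quantification, hatched bars the second, blue replicate 1 and orange replicate 2. The most upstream start holds 85.1% and 83.9% in the first quantification and 42.6% and 45.6% in the second.

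Mitf-206, a retained-intron transcript that begins at the upstream start, was at 25.5 TPM in replicate 1 and 25.4 TPM in replicate 2, and at 24.9 and 28.1 TPM in the second quantification. It runs from exon 2 into 877 bases of intron 2, and the border lies at chr6:97941283-97941322 on the plus strand, with intronic bases in capitals.
Mitf-206: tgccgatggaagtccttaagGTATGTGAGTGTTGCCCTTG
It was the largest part of Mitf TPM in both quantifications, with a mean of 51.3% in the first and 51.7% in the second. By estimated counts Mitf-202, at 70.7% and 75.3%, was larger than Mitf-206, at 24.9% and 20.3%. The single annotated gene that overlaps any of the 5 is Gm15531, a processed pseudogene on the opposite strand inside Mitf (chromosome 6, 97890288 to 97890539), at 27.2 TPM in replicate 1 and 21.5 TPM in replicate 2. It shares 0 bases with Mitf exons, and whether counting used strand is not given in the sources used here.

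Tfec was split among transcripts that end differently. Tfec-201, the full-length coding form of 7 exons, was at 30.01 TPM in replicate 1 and 38.1 TPM in replicate 2, with 25.2 and 27.4 TPM in the second quantification. Tfec-203, annotated as retained intron, was at 31.3 and 51.2 TPM, and covers 2779 of the 3650 bases of intron 4. Tfec-204 was the highest by TPM, at 32.5 and 76.9 TPM, and at 30.1 and 56.7 TPM in the second quantification. It is annotated as coding with an incomplete start, but of its 572 bases 62 lie in exon 6 and 510 in intron 6. Both borders are shown with intronic bases in capitals, on the minus strand at chr6:16844175-16844214 for Tfec-203 and at chr6:16835182-16835221 for Tfec-204.
Tfec-203: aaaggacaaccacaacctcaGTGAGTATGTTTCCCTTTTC
Tfec-204: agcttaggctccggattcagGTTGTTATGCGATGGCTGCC
Tfec-204 took 6.99% of Tfec estimated counts in replicate 1 and 10.8% in replicate 2, yet 31.2% and 42.8% of its TPM. By counts Tfec-203 led, with 61.1% and 63.3%, and with 51.8% and 57.3% in the second quantification. Relative to the median gene, the log2 ratio of Tfec-204, replicate 1 over replicate 2, was -0.87 by TPM. It was -0.33 for Tfec-203 and 0.03 for Tfec-201.

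Tfe3 was spread over 14 transcripts, of which 6 held 10% or more of its mean TPM in either quantification. Tfe3-205, coding, led the first quantification at 2.37 TPM in replicate 1 and 5.02 TPM in replicate 2, but stood at 0.341 and 0.233 TPM in the second. Tfe3-212, a retained-intron form that keeps the whole of introns 3 and 9, was more stable, at 1.85 and 2.92 TPM in the first quantification and 1.44 and 2.52 TPM in the second. Tfe3-208, which keeps the whole of introns 6 and 8, was at 1.80 and 2.52 TPM, and at 1.16 and 1.86 TPM in the second quantification. The other 3 of the 6 were the retained-intron Tfe3-210 and Tfe3-213 and the coding Tfe3-214, between 0.97 and 1.97 TPM in the first quantification.

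Tfeb had 15 transcripts, and 6 were listed at 0 in both libraries of the first quantification. Its reads were split among 7 that held 10% or more of mean TPM in either quantification, with none above 0.82 TPM in the first. Tfeb-203, Tfeb-212, Tfeb-204 and Tfeb-202 shared most of it there, at means of 20.2%, 17.6%, 15.4% and 14.8%. The second quantification differed: Tfeb-207, listed at 0 in the first, held 25.8%, and Tfeb-212 was near 0. At 152 and 82 counts, which Tfeb form predominated was not resolved at this depth.

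The listed genes of mTORC1 control and related regulators were mostly detected at moderate levels. The list of 24 held Rag, folliculin, Ragulator and mTORC1 genes, and also the calcineurin genes Ppp3ca, Ppp3cb and Ppp3r1 and the kinase gene Gsk3b. Of the 24, 22 reached 1 TPM in both libraries, 10 reached 10 TPM and 0 reached 100 TPM. Their median was 8.90 TPM in replicate 1 and 13.6 TPM in replicate 2. The median expressed protein-coding gene was at 6.62 and 8.67 TPM. The highest was Fnip2, which encodes a folliculin partner, at 70.0 and 99.2 TPM. The Rag GTPase gene Rragc, at 24.99 and 28.8 TPM, and Flcn, which encodes the folliculin that activates Rag C and D, at 19.9 and 28.5 TPM, followed by mean. Fnip1, the other folliculin partner gene, tied with Flcn at a mean of 24.2 TPM, and at 29.4 TPM it was above Rragc and Flcn in replicate 2. Rragb was the lowest, at 0.09 TPM in both libraries from 2 estimated counts in each.

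Lysosome and autophagy genes of the CLEAR list ranged most widely. Of 34 genes, 32 reached 1 TPM in both libraries, 28 reached 10 TPM and 7 reached 100 TPM, with a median of 25.8 TPM in replicate 1 and 37.2 TPM in replicate 2. The highest was Psap, the saposin precursor gene, at 2138 and 2869.7 TPM, followed by the cathepsin genes Ctsb at 1017 and 1559 TPM and Ctsd at 870.1 and 1227 TPM. Ppargc1a, a transcriptional coactivator gene of mitochondrial biogenesis, was listed at 0 in both. Relative to the median gene, 1 of the 32 differed by more than 1.5-fold between the libraries, beside the 14.6% of expressed genes given above. The same count was 2 of 22 for the Rag, folliculin and mTORC1 genes, 3 of 10 for the other E-box factors, 1 of 10 for the osteoclast and lipid-laden macrophage genes, 1 of 9 for macrophage markers and 0 of 5 for the GPNMB partners and sheddases.

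Genes whose products bind or cut GPNMB were all present. Cd44, a GPNMB receptor, was at 571 TPM in replicate 1 and 786 TPM in replicate 2, and Sdc4, the proteoglycan to which GPNMB binds on T cells, at 406 and 460.4 TPM. The integrin gene Itgb1 was at 74.6 and 113 TPM. Adam10, whose protease sheds GPNMB, was the lowest of the 5 in the list, at 8.27 and 14.7 TPM.

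In the list of osteoclast and lipid-laden macrophage genes, 10 of 14 reached 1 TPM in both libraries and 4 reached 100 TPM in the first quantification. Spp1, which encodes osteopontin, was at 504 TPM in replicate 1 and 576 TPM in replicate 2, Lgals3, which encodes galectin-3, at 228 and 239 TPM, and the tetraspanin gene Cd63 at 121 and 181 TPM. The 4 genes under 1 TPM, named after their values were seen, were the bone collagen protease gene Ctsk (0.49 and 0.22 TPM), the cell fusion genes Dcstamp (0.57 and 0.10 TPM) and Ocstamp (0.06 and 0 TPM), and the osteoclast receptor gene Oscar (0.05 and 0.07 TPM). In the second quantification 11 of the 14 reached 1 TPM, and Ocstamp was at 2.38 and 2.54 TPM. Other osteoclast markers were above that level, among them Acp5, the tartrate-resistant acid phosphatase gene, at 13.7 and 16.1 TPM.

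Melanocyte genes, among them pigment genes that are classical MITF targets, were at or near 0 in the first quantification. Dct had 0.11 TPM in replicate 1 and 0.18 TPM in replicate 2, Pmel, the closest relative of Gpnmb, 0.12 and 0.03 TPM, and Mlana 0.04 and 0 TPM. Tyr, Tyrp1, Slc45a2, Oca2, Trpm1, Mc1r and Sox10 were listed at 0 in both libraries. By the second quantification 1 of the 10, Dct, was at 1 TPM or more in both, at 1.09 and 1.92 TPM, and by posterior mean TPM 1 of the 10 was.

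Other E-box factors of the same structural class were all detected. Of 10, all 10 reached 1 TPM in both libraries and 6 reached 10 TPM, with a median of 13.9 TPM in replicate 1 and 12.2 TPM in replicate 2. Max, the partner of the MYC family, was at 43.9 and 47.2 TPM, just under Mitf in both libraries, and at 66.8 and 40.1 TPM in the second quantification, where it was above Mitf in replicate 1 and below it in replicate 2. The MAX partner gene Mxd1 was at 38.8 and 32.0 TPM, the sterol factor gene Srebf2 at 26.2 and 36.4 TPM and the MAX partner gene Mnt, the lowest, at 1.17 and 1.84 TPM. Tfec was above all 10 in both libraries of the first quantification, and 9 of the 10 were above Tfeb there by mean TPM. In the second quantification Tfeb (7.19 and 7.46 TPM) was above Mnt and also above Myc (4.88 and 6.40 TPM) and Mlx (2.73 and 3.06 TPM).

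**Figure D5:**
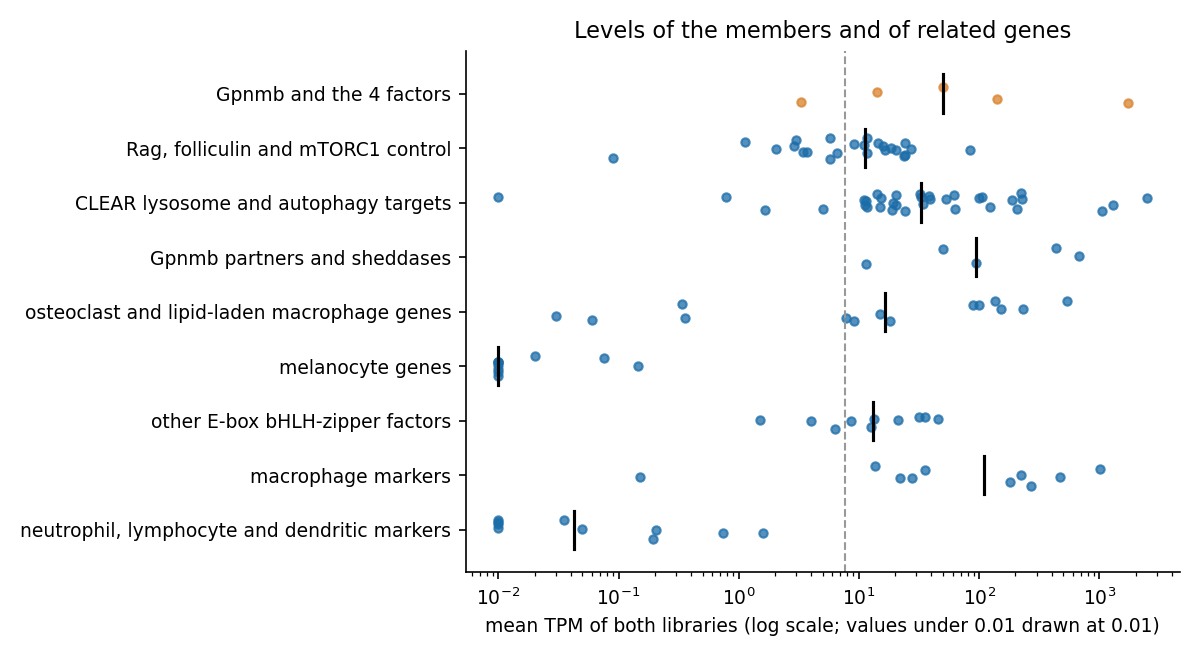
Mean TPM of both libraries in the first quantification, on a log scale, for each gene (point) of the 5 genes (orange) and of 8 related lists (blue), with the median of each as a black bar and the median of expressed protein-coding genes, 7.72 TPM, as a dashed line; values under 0.01 are drawn at 0.01. Melanocyte genes lie under 1 TPM, while CLEAR and macrophage genes reach over 1000 TPM.

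The cells carried macrophage markers. Of 10, 9 reached 10 TPM in both libraries, with Lyz2 at 916 TPM in replicate 1 and 1103 TPM in replicate 2, Mpeg1 at 371 and 572 TPM and Cd14 at 215 and 323 TPM. The scavenger receptor gene Cd163 was at 0.16 and 0.14 TPM. Of 10 neutrophil, lymphocyte and dendritic cell markers 1 reached 1 TPM in both libraries, Zbtb46, a dendritic cell factor gene, at 1.05 and 2.12 TPM. The neutrophil gene S100a8 was at 0.64 and 0.84 TPM, Flt3 at 0.16 and 0.25 TPM, and Nkg7 was listed at 0. Summed over each list in the first quantification, macrophage markers were at 1944 and 2561 TPM, the other lineages at 2.17 and 3.45 TPM and melanocyte genes at 0.27 and 0.21 TPM. The medians of these lists, in that order, were 93.0 and 124, 0.04 and 0.045, and 0 and 0 TPM. By the second quantification they were 73.6 and 82.2, 0.168 and 0.173, and 0.0614 and 0.0941 TPM.

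The genes nearest in level over both libraries, by distance on the log2 scale of TPM + 0.1, were listed for each of the 5, as a description over 2 libraries. For Gpnmb they were Lilrb4a, Lilr4b and Ctsb, at distances of 0.55, 0.60 and 0.62. For Tfec they were Lpl (104.9 TPM in replicate 1 and 165 TPM in replicate 2), the lipoprotein lipase gene, Swap70 and Igsf6. For Mitf they were Dnajb6, Ptbp3 and Ssh3, for Tfe3 B4galt6, Wdr81 and Cog4, and for Tfeb Rtel1, Ptgir and Alg5, at distances of up to 0.0609. Several of these were not near in the second quantification. There Dnajb6 was at 91.03 and 101.9 TPM and Ssh3 at 26.4 and 27.8 TPM, against 49.1 and 53.5 TPM for Mitf, Cog4 at 16.5 and 24.5 TPM, against 7.69 and 10.7 TPM for Tfe3, and Rtel1, Ptgir and Alg5 between 1.85 and 3.35 TPM, against 7.19 and 7.46 TPM for Tfeb.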

How the data were processed

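Each library has, per the file headers and notes deposited with them, a gene and a transcript table from 1 quantification of a transcriptome alignment (mm10, GENCODE M21), and a second transcript table quantified directly from 10 read files. Neither the aligner nor any quantifier's name is given in the sources used here. The authors deposited estimated counts (not normalized), TPM (length-scaled to a fixed total over all features, small RNAs included), posterior mean TPM and FPKM. The deposited bounds of the TPM interval (unit signal) are quoted for single genes. The authors' percent of a gene's TPM per transcript was recomputed here from TPM.

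Replicate 1 holds 22669533 estimated counts and replicate 2 holds 14939143 in the first quantification, against 30881427 and 27674626 in the second. Genes with effective lengths below 200 held 73.9% of TPM in replicate 1 and 57.0% in replicate 2, which lowers the TPM of longer genes by different amounts. Intervals cover counting error only.

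The 5 genes and all lists were chosen with earlier results of these data known. Named were the 5 genes, their transcripts with 10% or more of mean TPM in either quantification, the 3 highest and the lowest gene of each list (all melanocyte genes), the 3 nearest protein-coding genes by level, and overlapping genes. The 4 printed CLEAR promoters, Fnip1, Mitf-208, Myc, Mlx and the genes under 1 TPM in the osteoclast list were added after their values were seen. Expressed means 1 TPM or more in both libraries. Ratios used TPM + 0.1. Alternatives were the second quantification, posterior mean TPM, FPKM, other minimums, a pseudocount of 1, TPM rescaled over protein-coding genes, and rounded counts scaled by edgeR 4.0.16 (TMM) or DESeq2 1.42.0 size factors with a prior count of 2, tested on simulated data. With 1 group there was no test and no p-value. Python 3.11.15, pandas 2.3.3, numpy 2.4.6, scipy 1.17.1, matplotlib 3.10.9 and R 4.3.3 were used. Promoters came from RefSeq (GRCm38.p6), and transcripts and coordinates from GENCODE M21.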

Additional observations from a re-analysis of the deposited data

How the results depend on the processing

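No paired analysis was possible because there is 1 group. The percentile of Gpnmb among expressed protein-coding genes was 99.95 and stayed between 99.92 (minimum of 5 TPM) and 99.98 (no minimum), with 99.95 in the second quantification, 99.96 by posterior mean TPM and 99.96 by FPKM. Leaving out either library gave 99.954 to 99.956. The TPM of Gpnmb was 1214 in the second quantification and 8684 when TPM was rescaled over protein-coding genes, a change of scale that also took the median of the CLEAR list to 164 TPM. Gpnmb-201 held 73.7% of Gpnmb TPM, 57.0% in the second quantification and 89.8% by estimated counts. Transcripts not annotated as coding held 19.8%, 33.1% and 5.09% by the same measures. Tfec held 67.0% of the summed factors, 59.7% in the second quantification and 54.2% by counts. The log2 ratio of Gpnmb, replicate 1 over replicate 2, was -0.21 and ran from -0.58 with no minimum to 0.06 with TMM, never past 1.5-fold, so its direction is not settled. That of Tfec was -0.41 and ran from -0.79 with no minimum, past 1.5-fold, to -0.22 with TMM. In all, 152 of 227 recomputed values stayed within the spread used. That spread was the SD of the 2 libraries for levels and shares. For ratios it was the SD over expressed genes, 0.43, and counts of genes were allowed 1.5 times. Leaving out replicate 1 or 2 gave 30 of 32 within it each, which holds by construction for a mean of 2 libraries. No ratio of the 5 genes was past 1.5-fold in the main setting, so none could reverse such a difference. The Mitf ratio changed sign, from 0.19 to -0.19 with no minimum. With no minimum, the ratios of the 5 genes equal those not centred on the median gene. Depth limits Tfeb most, with 152 and 82 counts. The causes of these changes were not tested.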
